A study of Mus musculus with 12 samples.

Results

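Liver gene expression after 72 hours of fasting was compared with that after 24 hours. The members were the 3 arrays titled for 72 hours and the 3 titled for 24 hours, 6 of the 12 arrays of the series, with all 20280 probes that were neither controls nor retired. The mice were male, of the FVB strain and 6 weeks old, and all groups were kept in metabolic cages under an infrared lamp and were killed in the morning. Fed mice and mice fasted for 12 hours make up the other 6 arrays. The Cy3 channel held the RNA of 2 livers and the Cy5 channel held a reference made from 6 fed livers, the same on every array, so that an array is a pool and not a mouse. Values are log2 of sample over reference, and a value of 0 is the level of the fed reference. The fed arrays themselves did not read 0 for every gene, with a mean of 1.01 for Ass1 and 0.60 for Plin2. Whole liver was used, so that fewer cells of a type and less RNA per cell cannot be told apart.

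In fasting, the liver takes up fatty acids released from adipose tissue, oxidizes them in mitochondria and peroxisomes, and turns part of the product into ketone bodies for other organs. PPARalpha, a nuclear receptor activated by fatty acids, switches on many of the enzymes of this route. Amino acids released from muscle serve as a source of glucose, and their nitrogen leaves as urea.

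The third array at 24 hours stood apart. Its median Cy3 signal was 124.5, against 351 and 324 on the other arrays of its group and 571 to 637 at 72 hours, and the share of probes well above background was 87.4%, against 96.4% to 99.2% on those 5 arrays. Its log2 ratios correlated negatively with those of replicates 1 (r = -0.15) and 2 (r = -0.22) of its own group over 11302 probes, whereas these correlated with each other at r = 0.77. Its correlation was 0.02, -0.21 and -0.31 with replicates 1, 2 and 3 at 72 hours, and 0.67 with replicate 2 at 12 hours. The direction of the dyes was kept because the methods state it. The array was therefore used in one fit and left out of another, together with replicate 2 at 12 hours, the other array with a low Cy3 signal (median 200). The 72-hour arrays were quantified on 1 day and the 24-hour arrays on others, with no day shared, so that day and length of fasting cannot be told apart. Signal was also higher at 72 hours on every array, and its part in the results below was not tested.

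With all arrays, no probe of 19975 differed between 72 and 24 hours at an adjusted p under 0.05 and 1.4-fold (limma, 0% called). At an unadjusted p under 0.05 there were 703 probes, 404 higher and 299 lower at 72 hours, and 108 passed at an unadjusted p under 0.01 and 1.4-fold (0.541%). Without the arrays of low signal, 189 of 20028 probes passed (limma, 0.944% called), 54 higher (0.27%) and 135 lower (0.674%) at 72 hours, of which 100 had a gene name. With 1 probe a gene, the brightest, 79 of 6704 named genes were called (1.18%). A looser rule, 1.4-fold with p under 0.01 before adjustment, was met by 1194 probes (5.96%). An unadjusted p under 0.05 alone was met by 4633 probes (23.1%) and by 1647 of the 6704 named genes. The list counts at that p below are to be set beside this share. The count of 189 called probes rests on the choice of arrays. It was 0 when replicate 2 at 12 hours was put back, 0 when only the 5 arrays of the 2 time points were fitted, 0 without replicate 1 at 72 hours and 7 without replicate 2 at 72 hours. It was also 0 with the Cy3 channel alone and 0 with the quantification day as a random block. With the day as a fixed block over all arrays, 53 of the 79 genes had the opposite sign. That block rests on replicate 3 at 24 hours, replicate 2 at 12 hours and replicate 1 of the fed group. Many of the genes below are therefore given with each array's value, others with their difference alone. The word "called" refers to the fit without the low-signal arrays throughout.

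**Figure D1:**
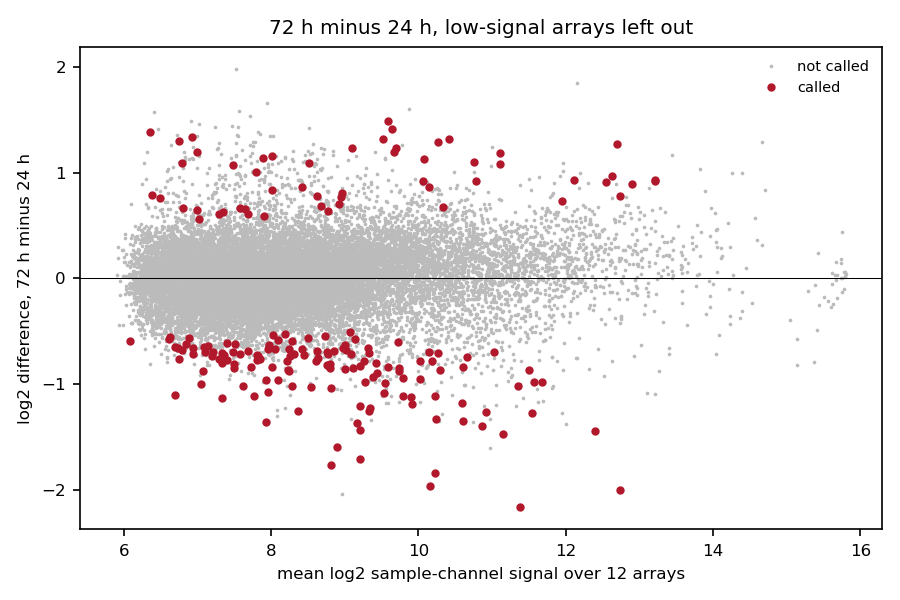
Difference between 72 and 24 hours (y axis, log2, low-signal arrays left out) against the mean log2 Cy3 signal of each probe over 12 arrays (x axis). Red points are the 189 called probes, 54 above and 135 below 0, and gray points are the probes not called.

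The called probes lay away from the fed reference at 24 hours and near it at 72 hours. The 135 lower probes had a median log2 ratio of 0.78 on replicates 1 and 2 at 24 hours and of 0.01 at 72 hours. The 54 higher probes had a median of -1.03 at 24 hours and of -0.07 at 72 hours. In all, 127 of the lower and 50 of the higher probes were nearer to 0 at 72 hours, as were 14788 of all 20028 probes tested. The 24-hour level differed from fed for 115 of the lower and 43 of the higher probes, and the 72-hour level for 4 and 2 of them (limma, same rule), but these comparisons share their arrays with the one that chose the probes. Over all 20028 probes the same counts were 1656 at 24 hours and 203 at 72 hours. With replicate 3 at 24 hours counted, the groups did not overlap for 28 of the 135 lower probes and for 37 of the 54 higher ones. Over all probes tested the groups were separated in this way for 7.5% (72 hours lower) and 9.19% (72 hours higher). The called probes were chosen on the same arrays except replicate 3 at 24 hours. Their higher share was therefore fixed in large part by that choice.

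Genes that handle fatty acids were among those called lower at 72 hours. They include a thioesterase, a carrier and an enzyme of fatty-acid oxidation and a coat protein of lipid droplets, with differences of 1.83-fold (Eci1) to 3.90-fold (Plin2). For Acot1, a cytosolic thioesterase that releases free fatty acids from acyl-CoA, all 3 arrays at 24 hours (1.73, 2.06 and 1.18) lay above all 3 at 72 hours (0.51, 0.65 and 0.47). Its difference was -1.35 ± 0.15 (2.55-fold; adjusted p = 0.0168), and -1.11 ± 0.26 with all arrays (unadjusted p = 0.0018, adjusted p = 1).

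Plin2, which coats lipid droplets, read 1.63, 1.62 and 0.34 at 24 hours and -0.52, -0.47 and -0.04 at 72 hours. The groups did not overlap, and the difference was -1.96 ± 0.28 (3.90-fold; adjusted p = 0.029), or -1.53 ± 0.47 with all arrays. The fed arrays of Plin2 read 1.05, 0.69 and 0.06, and its 72-hour level differed from fed by -0.94 (limma, adjusted p = 0.116). Slc22a5, the carnitine transporter of the plasma membrane, read 1.15, 1.25 and 0.24 at 24 hours and 0.20, 0.10 and 0.21 at 72 hours, a difference of -1.03 ± 0.12 (adjusted p = 0.0168). Here replicate 3 at 24 hours was above the 72-hour arrays by little. Eci1, an isomerase for the oxidation of unsaturated fatty acids, differed by -0.87 ± 0.15 (adjusted p = 0.0388), with replicate 3 at -0.28 below all 3 arrays at 72 hours (-0.16 to 0.30).

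The Plin2 promoter is shown because a repeat of AGGTCA in the same direction with 1 base between the copies, the kind of element PPARalpha binds, was searched for on both strands with at most 2 mismatches. The window is chr4:86670010-86670309 on the minus strand (GRCm38.p6, RefSeq), from 250 bases before to 50 after the gene's start, written 5′ to 3′ along the gene, with the match, on the opposite strand, in capitals.
Plin2 promoter: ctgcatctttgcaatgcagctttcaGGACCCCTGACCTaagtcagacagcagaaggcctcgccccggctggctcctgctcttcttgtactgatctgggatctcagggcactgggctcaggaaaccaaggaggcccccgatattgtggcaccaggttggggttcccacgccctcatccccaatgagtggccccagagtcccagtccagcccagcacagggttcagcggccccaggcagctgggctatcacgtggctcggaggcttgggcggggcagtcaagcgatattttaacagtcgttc
Such a match was held by 3.86% of all 32851 promoters, by 4 of the 63 promoters listed for genes lower at 72 hours and by 7 of the 37 listed for the lipid lists below. A match is not a site shown to be bound. The promoters of Acot1, Slc22a5 and Eci1 held none.

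**Figure D2:**
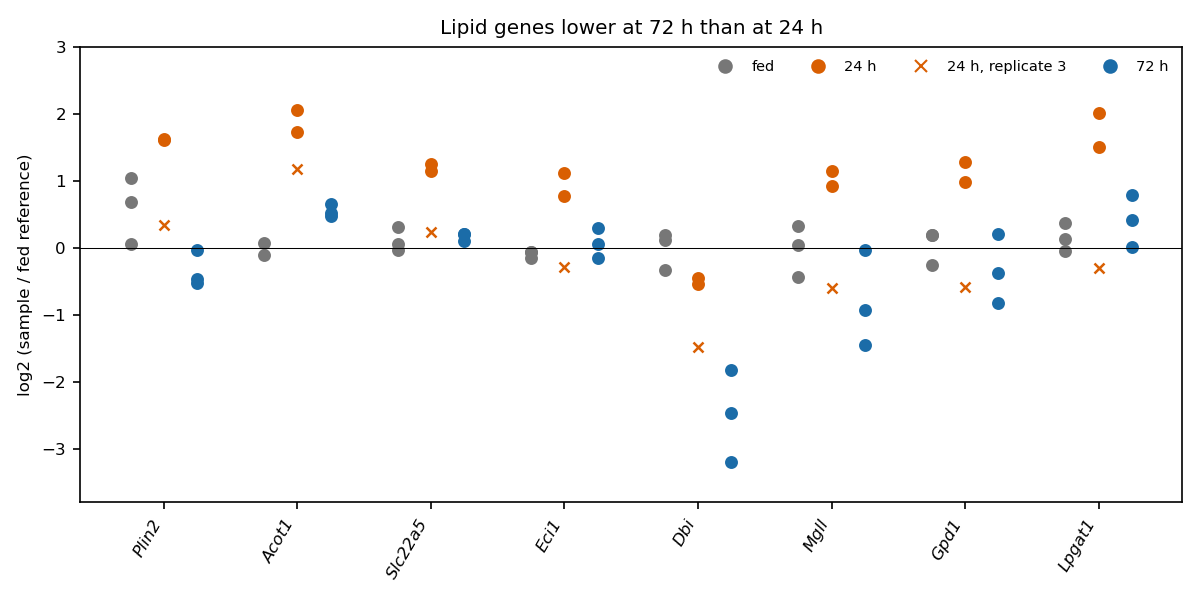
Log2 ratio of sample over fed reference (y axis) on each fed, 24-hour and 72-hour array for 8 lipid genes called lower at 72 hours (x axis). Crosses mark replicate 3 at 24 hours, which lay among or below the 72-hour arrays for Eci1, Mgll, Gpd1 and Lpgat1.

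Of the list of mitochondrial fatty-acid oxidation, 16 genes were tested and 2 were called lower (Slc22a5 and Eci1), against 0.85% of named genes called lower. At an unadjusted p under 0.01 and 1.4-fold, 7 were lower and none higher, against 4.36% lower and 2.94% higher over named genes. All 16 had a negative difference without the low-signal arrays, with a median of -0.71, and 14 of 16 with all arrays, with a median of -0.23. The median over all 6704 named genes was 0.01 in the first and 0.06 in the second. Of 19 tested peroxisomal and PPARalpha target genes, 3 were called lower, Plin2 and Acot1 among them. In this list 13 were negative and 6 positive, with a median of -0.78, or -0.39 with all arrays. By the unadjusted rule 8 of them were lower and 2 higher. On single arrays, the median of the oxidation list was 1.06 and 1.11 on replicates 1 and 2 at 24 hours and -0.32 on replicate 3, and -0.05, 0.55 and 0.62 at 72 hours. Of 5 genes of ketone-body synthesis 1 was called lower, and 3 had a negative and 2 a positive difference. Their median was -0.19, or -0.08 with all arrays.

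Pex11a, which acts in the division of peroxisomes, did not pass (adjusted p = 0.0515) but was separated on all arrays. It read 0.52, 0.98 and 0.98 at 24 hours and -0.14, -0.38 and -0.12 at 72 hours, a difference of -0.96 ± 0.20, or -1.04 ± 0.27 with all arrays.

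Further genes of fatty-acid oxidation did not pass, and the 3 given here were named after their values were seen. Cpt2, the inner-membrane enzyme that hands acyl groups back to CoA for oxidation, read 1.25, 1.12 and -0.18 at 24 hours and -0.69, -0.22 and 0.43 at 72 hours, a difference of -1.34 ± 0.31 (adjusted p = 0.0625), or -0.89 ± 0.42 with all arrays. Crot, the carnitine acyltransferase of peroxisomes, read -0.12, 0.23 and -1.54 at 24 hours and -2.10, -1.99 and -0.55 at 72 hours, a difference of -1.60 ± 0.45 (adjusted p = 0.0882), or -1.07 ± 0.72. Ppara, the gene of PPARalpha itself, read 0.83, 1.24 and -0.08 at 24 hours and -0.83, -0.11 and 0.54 at 72 hours, a difference of -1.17 ± 0.31 (adjusted p = 0.0809), or -0.79 ± 0.48. In all 3 the spread among the 72-hour arrays was wide, and replicate 3 at 24 hours lay within their range.

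**Figure D3:**
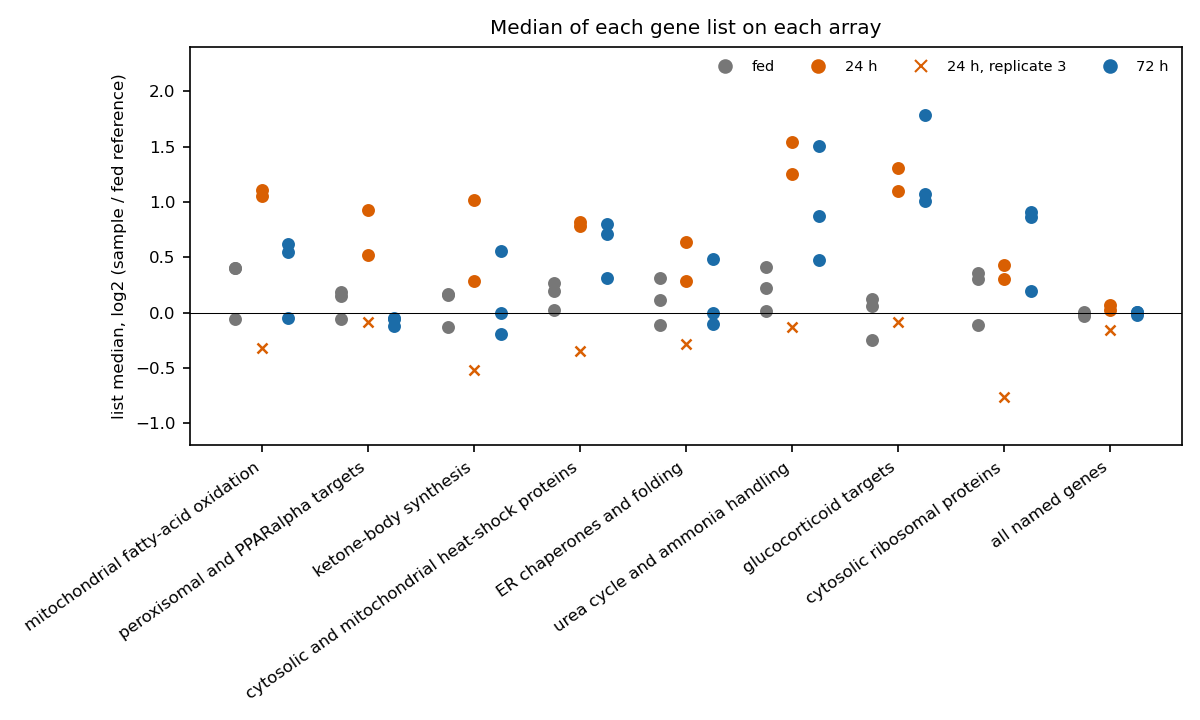
Median log2 ratio over the tested genes of 8 lists and of all named genes (x axis) on each fed, 24-hour and 72-hour array (y axis). Replicate 3 at 24 hours (cross) lay below the other 24-hour arrays in each list shown.

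Other genes of lipid handling were lower as well. Dbi, which binds and carries acyl-CoA esters, read -0.45, -0.54 and -1.48 at 24 hours and -3.20, -2.46 and -1.83 at 72 hours. It was the one lipid gene named here that was below the fed level at 72 hours by the same rule (-2.49 against fed, adjusted p = 0.00509), and it differed from 24 hours by -2.0 ± 0.33 (adjusted p = 0.0376). Mgll, the monoacylglycerol lipase, was called at -1.84 ± 0.35 (adjusted p = 0.0476) on its brightest probe, while its other probe gave -0.21 (adjusted p = 0.415). Gpd1, the cytosolic glycerol-3-phosphate dehydrogenase, differed by -1.47 ± 0.29 and Lpgat1, an acyltransferase, by -1.36 ± 0.22, and for both replicate 3 at 24 hours was within or below the 72-hour range. Mgll, Gpd1 and Lpgat1 were named after their values were seen.

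A pair of genes of polyamine control differed in opposite directions without the low-signal arrays. Azin1, which protects ornithine decarboxylase from breakdown and so favours polyamine synthesis, had the smallest adjusted p of all probes. It read 0.94, 1.38 and -0.90 at 24 hours and -0.80, -0.69 and -0.31 at 72 hours, with replicate 3 at 24 hours below all 72-hour arrays. The difference was -1.76 ± 0.17 (adjusted p = 0.0098), or -1.07 ± 0.67 with all arrays (limma, unadjusted p = 0.139). Sat1, which acetylates spermidine and spermine for export or breakdown, read -0.18, -0.25 and -1.16 at 24 hours and 0.98, 1.54 and 0.54 at 72 hours. Its groups did not overlap, and it was higher by 1.24 ± 0.22 (adjusted p = 0.0392), or 1.55 ± 0.46 with all arrays. Azin1 was named after its values were seen.

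Rbm3, an RNA-binding protein known for its induction by mild cold, had the largest increase among the called genes chosen by the rule. It read -0.38, 0.33 and -0.58 at 24 hours and 1.13, 1.96 and 1.30 at 72 hours. All 72-hour arrays were above all 24-hour arrays and above the fed arrays (-0.20 to 0.04). The difference was 1.49 ± 0.27 (2.80-fold; adjusted p = 0.0388), or 1.67 ± 0.29 with all arrays (unadjusted p = 0.000188).

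Of 27 tested heat-shock genes, 2 were called lower at 72 hours, Hsp90aa1 and Dnaja1, against 0.85% of named genes. At an unadjusted p under 0.01 and 1.4-fold, 7 were lower and 1 higher, against 4.36% and 2.94% of named genes. The list's median was -0.09, or 0.19 with all arrays. Hsp90aa1, a cytosolic chaperone, read 1.63, 2.05 and -0.91 at 24 hours and 0.28, 0.34 and 0.90 at 72 hours, a difference of -1.33 ± 0.23 (adjusted p = 0.0388), and its other 2 probes gave -1.19 and -1.11. With all arrays the difference was -0.42 ± 0.76, since replicate 3 lay below the 72-hour arrays. Dnaja1, a co-chaperone, differed by -0.93 ± 0.18 (adjusted p = 0.0478), or by -0.39 ± 0.62 with all arrays. Replicate 3 at 24 hours (-0.66) lay below its 72-hour arrays (-0.23 to 0.41). Hspa4l, a relative of the heat-shock proteins that is outside the list and was named after its values were seen, read 0.92, 0.90 and -0.34 at 24 hours and 0.00, 0.22 and 0.35 at 72 hours, a difference of -0.72 ± 0.13 (adjusted p = 0.0388), while its other probe gave -0.26. Of 21 chaperones of the endoplasmic reticulum, 0 were called (limma, 5 at an unadjusted p under 0.05) and 16 were negative, with a median of -0.39 without and -0.07 with the low-signal arrays.

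**Figure D4:**
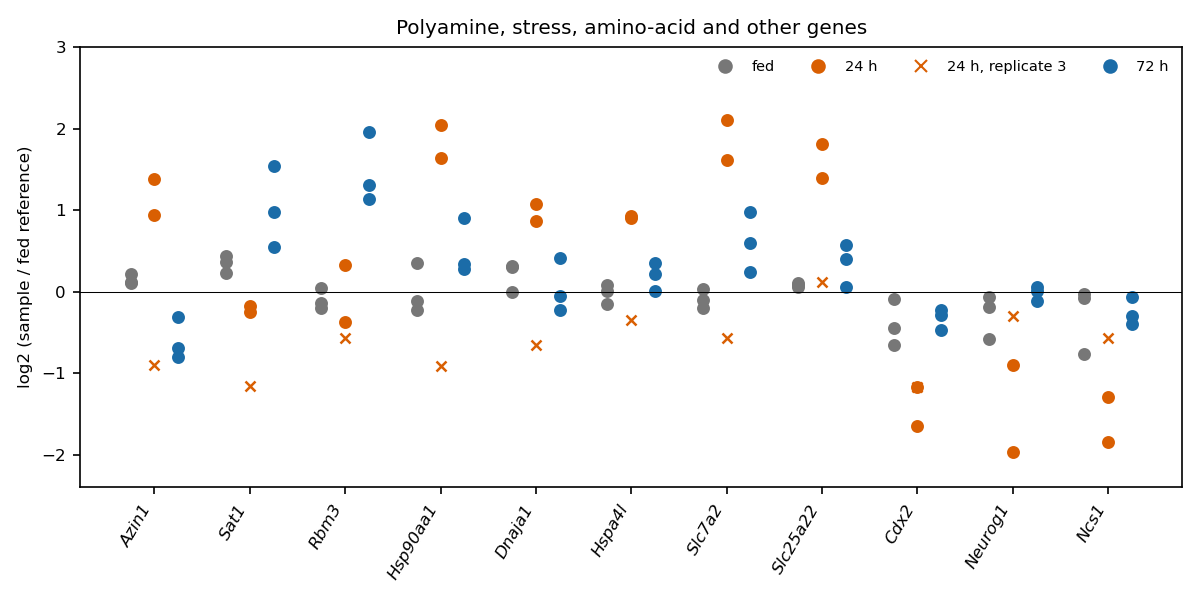
Log2 ratio of sample over fed reference (y axis) on each fed, 24-hour and 72-hour array for genes of polyamine control, stress and amino-acid transport and for called genes higher at 72 hours (x axis). For Sat1 and Rbm3 all 72-hour arrays lay above all 24-hour arrays, replicate 3 (cross) included.

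Of 12 tested genes of the urea cycle and ammonia handling, 7 had a negative and 5 a positive difference, with a median of -0.17, or 0.36 with all arrays. In this list 1 gene was called lower, against 0.85% of named genes. It was Slc25a22, a mitochondrial glutamate carrier, at -1.26 ± 0.17 (adjusted p = 0.0286). Slc25a22 read 1.81, 1.39 and 0.12 at 24 hours and 0.39, 0.57 and 0.06 at 72 hours. Slc7a2, a transporter of cationic amino acids, was called at -1.25 ± 0.23 (adjusted p = 0.0415) and was named after its values were seen. Replicate 3 at 24 hours (-0.57) lay below its 72-hour arrays (0.25 to 0.98), and with all arrays the difference was -0.44 ± 0.66. The urea-cycle enzymes were not called. Ass1 read 1.71, 1.12 and 0.52 at 24 hours and 1.64, 2.23 and 1.56 at 72 hours (difference 0.39 ± 0.23, adjusted p = 0.324). Its usable fed arrays read 1.19 and 0.82, and its 72-hour level differed from fed by 0.80 (limma, adjusted p = 0.144). Asl had 1 usable array at 72 hours, which read 4.01 against 3.34, 2.50 and 0.61 at 24 hours (difference 1.09). Its usable fed arrays read 0.98 and 0.97.

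Pck1, the cytosolic enzyme that commits carbon to glucose, was not called. It read 1.44, 1.31 and 0.52 at 24 hours and 1.03, 1.30 and 1.21 at 72 hours, a difference of -0.20 ± 0.13 (adjusted p = 0.384). Of 10 genes of gluconeogenesis, 10 of glycogen metabolism and 14 of glycolysis, 0 were called in either direction by limma, and 2, 2 and 3 had an unadjusted p under 0.05. Their medians were 0.11, -0.23 and -0.14, or 0.20, 0.03 and 0.06 with all arrays. At an unadjusted p under 0.01 and 1.4-fold, 1 of the gluconeogenesis list and 1 of the glycolysis list were higher, and 2 of the glycolysis list were lower.

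Ribosomal proteins and glucocorticoid targets had mostly positive differences, and 0 of them were called (limma, with 8 and 3 at an unadjusted p under 0.05). Of 55 cytosolic ribosomal protein genes, 45 had a positive difference and 10 a negative one, with a median of 0.27, or 0.62 with all arrays, against 51.0% positive over named genes. Of 14 glucocorticoid targets 10 were positive and 2 were higher by the unadjusted rule, with a median of 0.27 and of 0.67 with all arrays. Mt1, a metal-binding protein of that list, read 2.72, 1.85 and 2.09 at 24 hours and 3.37, 3.33 and 3.14 at 72 hours. All 72-hour arrays were above all 24-hour arrays, by 1.00 ± 0.21 (adjusted p = 0.0583), and the spot was saturated on 2 arrays at 72 hours. Ctsl, a lysosomal protease, read 2.61, 2.24 and -0.32 at 24 hours and 5.50, 5.49 and 1.82 at 72 hours, a difference of 1.84 ± 0.85 that did not pass (adjusted p = 0.224), with the spot saturated on 1 array at 72 hours.

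Further called genes separated on all arrays included Cnot7, a subunit of the deadenylase that shortens mRNA tails, at -1.28 ± 0.23, and Cpox, an enzyme of heme synthesis, at -0.95 ± 0.15. Ap1m2, a subunit of a clathrin adaptor, and Tex2 differed by -0.77 ± 0.11 and -0.70 ± 0.11. F5, a clotting factor made in liver, was called at -0.97 ± 0.20, with replicate 3 at 24 hours (-0.76) set against -0.08, 0.30 and 0.58 at 72 hours.

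Besides Rbm3 and Sat1, the 8 other called increases that the rule named were Neurog1, Fam241b, Ncs1, Lhfpl2, Cdx2, Zc3h18, C1qtnf4 and Pkdcc, with differences of 0.93 to 1.41. Neurog1 and Cdx2 are transcription factors of neurons and intestine. Cdx2 read -1.17, -1.65 and -1.18 at 24 hours and -0.28, -0.47 and -0.23 at 72 hours, so that the difference of 1.08 ± 0.18 (adjusted p = 0.0376) left it nearer the fed level at 72 hours. The same held for Pkdcc, at -0.99, -0.82 and -0.31 at 24 hours and 0.10, -0.08 and 0.06 at 72 hours. Zc3h18 was called on its brightest probe, while its other probe differed by -0.24 (adjusted p = 0.382).

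The lists of fatty-acid, cholesterol and bile-acid synthesis and of apolipoproteins held no called gene. Of 17 genes of fatty-acid synthesis 0 were called by limma and 4 had an unadjusted p under 0.05, with a median of -0.10, or 0.19 with all arrays. Of 18 genes of cholesterol synthesis and uptake 0 were called and 5 had such a p, with medians of -0.05 and 0.16. All 4 tested genes of bile-acid synthesis and transport had a negative difference in both fits, with medians of -0.69 and -0.34, and 2 had an unadjusted p under 0.05. Of 8 apolipoproteins and related genes 0 were called and 3 had such a p, with medians of -0.18 and -0.03. In that list the spots of Apoa1 and Apoe were saturated on 2 arrays at 24 hours and 3 at 72 hours.

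Lists of amino-acid breakdown and of mitochondria outside fatty-acid oxidation had smaller medians whose sign turned between the fits. Of 22 genes of the tricarboxylic-acid cycle, 14 were negative, 7 had an unadjusted p under 0.05 and 0 were called by limma, with a median of -0.17, or 0.11 with all arrays. Of 49 genes of the electron-transport chain and ATP synthase, 33 were negative, 5 had such a p and 0 were called, with medians of -0.14 and 0.22. For 14 genes of amino-acid catabolism the medians were -0.14 and 0.19, with 11 negative and 0 called, and 3 had an unadjusted p under 0.05. For 15 genes of sulphur amino-acid and methyl metabolism they were -0.15 and 0.23, with 0 called and 6 at such a p.

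Protein turnover and stress lists showed the same turn of sign, except for the targets of ATF4. Of 33 proteasome genes, 21 were negative and 0 were called by limma, with a median of -0.05, or 0.20 with all arrays, and 3 had an unadjusted p under 0.05. Of 43 genes of lysosome and autophagy 0 were called and 16 had such a p, against 1647 of 6704 named genes, with medians of -0.07 and 0.10. Medians were -0.04 and 0.22 for 24 translation factors, -0.03 and 0.23 for 22 metallothioneins and antioxidant enzymes and 0.13 and 0.20 for 11 targets of ATF4, a transcription factor of amino-acid shortage, with 0 called and 6, 7 and 1 at an unadjusted p under 0.05.

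Among lists of liver identity, F5 was the 1 gene called of 17 for acute phase and plasma proteins (median -0.39, or -0.03 with all arrays). Of the 8 genes of cytochrome P450 and conjugation 1 was called lower, and their median was -0.28, or 0.03. Over named genes 0.85% were called lower. The 5 pericentral genes had a median of -0.55, or -0.21 with all arrays, and the 8 periportal genes of -0.08, or 0.25, with 0 called and 2 each at an unadjusted p under 0.05. Few sex-biased genes were tested, 3 male-biased (median -1.21, or -0.57) and 4 female-biased (-0.47, or -0.08), with 0 called and 2 each at an unadjusted p under 0.05. The spot of the male-biased Serpina1e was saturated on 2 arrays at 24 hours and 3 at 72 hours. For 26 nuclear receptors and liver transcription factors the medians were 0.05 and 0.07, with 0 called and 4 at such a p.

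The lists of regulation held no called gene. Medians were -0.07 and 0.03 with all arrays for 20 genes of the insulin and IGF axis, 0.20 and 0.14 for 12 clock genes, 0.09 and 0.21 for 19 immediate-early genes, 0.06 and 0.04 for 37 genes of cell cycle and replication and -0.02 and 0.05 for 29 genes of apoptosis. By limma 0 of these were called, and 6, 2, 5, 10 and 7 had an unadjusted p under 0.05. Over all 6704 named genes 1647 had an unadjusted p under 0.05.

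Hepatocyte markers were bright, as the label of liver implies. The Cy3 signal of Apoa1 had a median of 65194 and that of Trf, transferrin, of 61698 over the 5 arrays. The Apoa1 spot was saturated on all 5 (2 at 24 hours and 3 at 72 hours), so its difference is one between saturated spots. The Trf spot was saturated on some. Of the 4 tested hepatocyte markers 0 were called by limma and 1 had an unadjusted p under 0.05, Trf at -0.79 ± 0.25 (adjusted p = 0.116). Of the others, Ambp and Ttr had negative differences and Apoa1 a positive one, and the list's median was -0.41, or -0.28 with all arrays. Over the lists of markers of other cell types (macrophages, lymphocytes and neutrophils, endothelium, stellate cells, bile ducts, red cells, pancreas, fat and muscle), 0 of 66 tested genes were called by limma and 18 had an unadjusted p under 0.05, with list medians of -0.13 to 0.38. Of the 66 tested genes that the study names for 24 or 72 hours, 2 were called lower and 0 higher, against 0.85% and 0.328% of named genes. Of these 66, 52 had a negative difference, against 35 with all arrays. The study chose these genes on these arrays.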

How the data were processed

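Liver RNA was hybridised to 12 two-colour Agilent arrays, 3 for each of fed, 12, 24 and 72 hours of fasting. Per the file headers, the deposited intensities (median signal and median local background of each spot) came from Feature Extraction A.6.1.1 without normalization, and the deposited log10 ratios were background-subtracted and dye-normalized by that software. The deposited value table holds the log10 ratios with the sign turned, with a largest difference of 4.98e-08. The authors used background-subtracted medians, quantile normalization and a Split-Factor ANOVA, which was not run here.

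Intensities were corrected with normexp (offset 50), quantile-normalized over 24 channels and turned into log2 ratios of sample to reference, with outlier-flagged spots missing. Probes entered a test when Cy3 was well above background throughout at least 1 of the groups compared. limma 3.58.1 in R 4.3.3 (lmFit, eBayes, group as design) gave the differences, called at 1.4-fold and an adjusted p (Benjamini-Hochberg, all probes tested) under 0.05. Gene lists used the brightest probe of each gene. Among 154 genes called or drawn from the lists, 27 had several probes, and 10 of these had probes of opposite sign. The scripts were tested on simulated data. The members, lists and named genes were chosen with earlier results of these data known. Named genes were called probes with groups separated on all 6 arrays (10 a direction by size, filled by unadjusted p), called members of each list (the brightest 2 where none was called, few of which are printed) and genes of the study, and others are marked. SDs and SEs are between pools, and p-values measure that spread. For each probe the SE and p-value use 1 spread, shared by all groups in the fit, fed and 12 hours included. The number of arrays limits the precision. Replicate numbers mark different mice and pair nothing. A few called genes are not reported here.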

Additional observations from a re-analysis of the deposited data

How the results depend on the processing

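With all arrays the count of called probes was 0 under most alternatives, including loess, the scanner's log ratio, 2 other background corrections, the random day block, the replicate block and leaving out any 1 array. It was 61 with array weights, 1667 with quantification day as a fixed block and 108 at an unadjusted p under 0.01 and 1.4-fold. Without the low-signal arrays the count of 189 became 300 with the scanner log ratio, 93 with background-subtracted medians, 85 without background correction, 0 with the sample channel alone, 0 with the 24 and 72 hour arrays alone, 0 with quantification day as a random block, 0 with 12-hour replicate 2 kept and 1194 at the unadjusted rule. Leaving out 1 replicate at a time gave 0 to 1016 calls. A lone 24-hour sample was then assumed to vary like the other groups. With the replicate block it was 10, of which 7 were shared with the 189. The numbers mark different mice, and deviations of same-numbered samples correlated at -0.47, 0.41 and -0.24. The fixed day block could not be fitted without the low-signal arrays. Of 36 list medians 28 were below 0, against 10 with all arrays and 2 with the fixed day block. That block turned the sign of Plin2 (0.036), Eci1 (0.69), Mgll (0.077), Gpd1 (0.51), Lpgat1 (0.80), Azin1 (0.39), Hsp90aa1 (1.09), Dnaja1 (1.13), Hspa4l (0.24), Slc25a22 (0.015), Slc7a2 (0.97) and F5 (1.33). Of the 79 genes called, 55 passed with loess, 62 with the scanner log ratio, 5 with the replicate block and 0 with all arrays. The causes were not tested. Signal over background was lowest on 24-hour replicate 3, at a median of 3.50.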
